A study of Mus musculus with 12 samples.

Results

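Hearts of mice that received lipopolysaccharide together with Xijiao Dihuang decoction (LPS+XJDHT) were compared with hearts of mice that received lipopolysaccharide without it (LPS). The comparison used 8 of the 12 samples of the series, the 4 labelled LPS+XJDHT and the 4 labelled LPS. Their members were taken from the group labels and not from any measured value. All mice were wild-type C57BL/6. The LPS group received LPS at 10 mg/kg and saline, the LPS+XJDHT group received the same LPS dose and XJDHT at 50 mg/kg per day, and the 4 Control mice, given below as the background, received saline in place of both, each over 3 days. The sources used here do not give age, sex or route, and none of the 3 groups received XJDHT without LPS. Total RNA of the heart was depleted of ribosomal RNA and sequenced, and the deposited value is FPKM, the number of fragments per kilobase of transcript, scaled by the library's total. Each sample carries a number of its own in the labels, so nothing pairs the mice, and p-values measure the spread between these samples.

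Lipopolysaccharide is a glycolipid that covers Gram-negative bacteria. It is bound by CD14 and by the receptor TLR4 with its partner MD-2, which signal through MyD88 to NF-kB, and NF-kB drives the transcription of cytokines, chemokines and acute-phase proteins. In the heart this response comes with weaker contraction, and an injection of LPS is a common model of sepsis-induced cardiac dysfunction. Xijiao Dihuang decoction is a traditional Chinese formula named after horn and Rehmannia root. The study asked whether the decoction protects the heart from that dysfunction, and the comparison addresses which transcripts differ when it is added to LPS.

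The libraries held 73.8 to 77.8 M fragments (M, mega), as recovered from the steps between deposited values, and the share of mitochondrial fragments was 31.4% ± 1.53 in LPS+XJDHT and 31.4% ± 2.02 in LPS (SD, n = 4). The LPS+XJDHT files list 35802 transcripts and the Control and LPS files list 36293, with 33137 in both, and the values below come from rows in both unless stated. The file set and the treatment therefore cannot be told apart. Cardiomyocyte markers were abundant in both groups: Myh6, the alpha-myosin heavy chain, was 1536 to 2442 FPKM in LPS+XJDHT and 1812 to 2159 FPKM in LPS. On the leading component of the 8 libraries, which held 22.9% of the variance, the 4 LPS+XJDHT libraries lay between -1.34 and 17.8, inside the span of the LPS libraries from -39.5 to 28.0. Library LPS+XJDHT 2 stood apart. It had the lowest value of the second component, -29.5 at 14.6% of the variance, and its Y-linked transcripts Ddx3y and Uty were listed at 0 although the other 11 libraries expressed them. Eif2s3y, a Y-linked translation factor, was 14.4, 0.199, 11.9 and 12.9 FPKM in the 4 LPS+XJDHT libraries, so LPS+XJDHT 2 differs in this respect from the other 3. The 13 decreases described next were all called without that library as well, with 14 genes lower and 1 higher in all.

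Addition of XJDHT to LPS was followed by few differences in single genes. Of 11509 genes tested, 13 were lower and 0 were higher in LPS+XJDHT than in LPS at an adjusted p under 0.05 (limma with Benjamini-Hochberg adjustment), which is 0.113% of the genes. Only genes listed in both file sets were tested. A gene near 0 in LPS and Control could be listed for the LPS+XJDHT files alone, as 317 genes were. Such a gene could not be counted as higher, so the 2 directions were not equally open to the test. At an unadjusted p under 0.05, 551 genes (4.79%) differed, 351 of them higher (3.05%) and 200 lower (1.74%). The 2 groups did not overlap in 324 genes (2.82%), 225 of them higher (1.95%) and 99 lower (0.86%). The median difference over all genes was 0.03 on the log2(FPKM + 1) scale, which is used for every difference below and understates the change of genes near 1 FPKM. The median 95% confidence interval reached 0.389 log2 units to either side, and for 9583 genes (83.3%) the whole interval lay within 1 log2 unit of no change. The p-values of the remaining genes do not show that the hearts were alike, but for those 9583 genes the interval excludes a change of 2-fold or more on that scale.

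Of the 13 genes that fell, 8 are alpha-defensins, peptides that Paneth cells of the small intestine release against bacteria. In all, 11 of the 13 are on the small intestine marker lists, and 1 is a testis gene. All were scarce, since 12 of the 13 stayed under a mean of 5 FPKM in LPS, and 10 of the 13 passed the limit for testing (1 FPKM in at least 4 libraries) through the LPS libraries alone. Defa24, the defensin with the lowest p, was 5.35, 3.89, 3.76 and 3.00 FPKM in LPS libraries 1 to 4 and 0.129, 0.376, 0 and 0 FPKM in LPS+XJDHT libraries 1 to 4. The groups did not overlap, and 3 of the 4 Control libraries were at 0. The difference was -2.14 ± 0.16 on the log2 scale (SE, adjusted p = 0.00016), and behind it stood 509 fragments in the 4 LPS libraries, 16 in the 4 LPS+XJDHT libraries and 4 in the 4 Control libraries.

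The defensins lie together on chromosome 8 (build GRCm38), and the first 90 coding bases of 4 of them, from the GENCODE transcripts, are shown because they make clear how nearly the genes repeat each other. Each run starts at the start codon, lies in an exon on the plus strand, and carries in capitals the bases that differ from Defa20 at the same position.
Defa24, chr8:21734537-21734626: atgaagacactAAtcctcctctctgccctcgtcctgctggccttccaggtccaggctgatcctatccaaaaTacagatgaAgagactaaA
Defa30, chr8:21134663-21134752: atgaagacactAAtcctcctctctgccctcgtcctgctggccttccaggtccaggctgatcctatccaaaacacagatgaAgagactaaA
Defa21, chr8:21025588-21025677: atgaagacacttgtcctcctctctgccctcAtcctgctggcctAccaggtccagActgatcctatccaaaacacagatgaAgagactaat
Defa20, chr8:21509301-21509390: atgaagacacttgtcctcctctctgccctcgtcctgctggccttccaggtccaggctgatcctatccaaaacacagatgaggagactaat
Over these 90 bases Defa2 (chr8:21378560-21378649) and Defa32 (chr8:21529075-21529164) have the same letters as Defa20. Over the whole coding sequence the 28 pairs of the 8 called members were 63.3% to 100% identical, with a median of 81.6%. Defa20 and Defa32 were 100% identical there, as were Gm7849 and Gm7861. Fragments from one copy can be assigned to another, so the 8 genes are not 8 separate observations and the value of a single copy is uncertain.

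Within that limit the copies had the same pattern over the libraries. Defa30 had values of 1.43, 1.34, 1.33 and 1.39 FPKM with LPS alone, and 0 was listed for it in the 4 LPS+XJDHT and the 4 Control libraries (log2 difference -1.25, adjusted p = 0.00016). Its 166 LPS fragments stand against 0, and a count of 0 allows up to 3 fragments by counting error alone. Defa21 was likewise listed at 0 in all LPS+XJDHT libraries against 1.70 to 3.49 FPKM in LPS (log2 difference -1.74). For Defa20 the LPS values were 3.62, 3.71, 2.37 and 2.16 FPKM and the LPS+XJDHT values 0, 0.339, 0 and 0 FPKM (log2 difference -1.86). Its trace in LPS+XJDHT came from library 2, which also held the traces of Defa2 and Defa32. Defa2 and Defa32 fell by 1.65 and 1.69, and the minus-strand copies Gm7849 and Gm7861 by 1.23 and 1.13. All 8 were absent or nearly so in Control, with at most 4 fragments for a gene over the 4 libraries. The low values in LPS+XJDHT are therefore near the level of hearts that received no LPS.

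**Figure D1:**
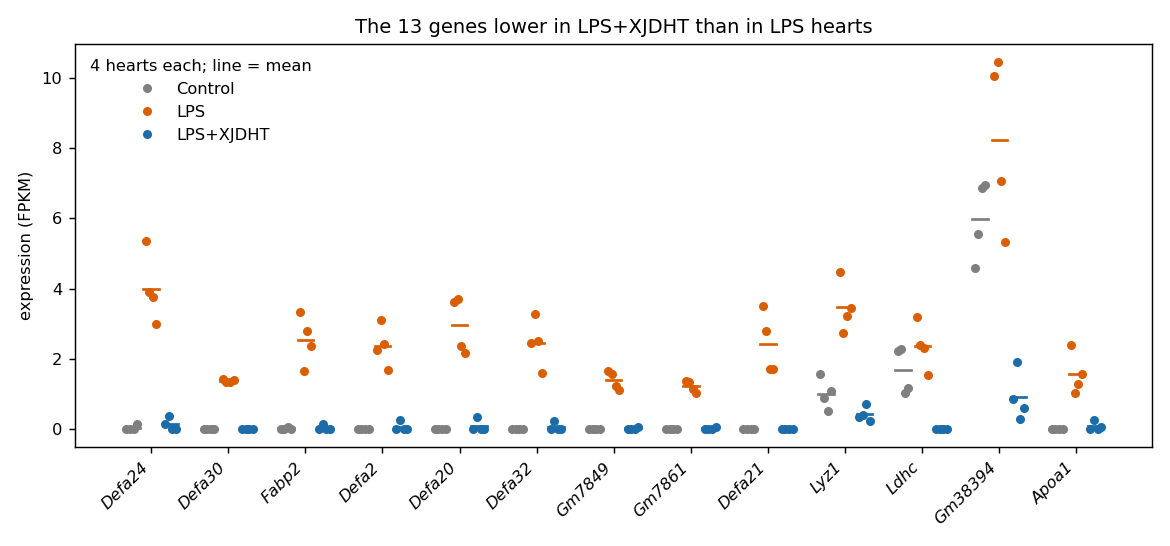
Expression in FPKM of the 13 genes that were lower in LPS+XJDHT than in LPS, 1 point per heart, with the mean of each group as a line. The LPS points lie above all LPS+XJDHT points in each gene. Of the 13 genes, 8 were at 0 in the 4 Control hearts, while Lyz1, Ldhc and Gm38394 were expressed in Control.

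The promoters of the defensins also repeat each other. The 120 bases before the start site are shown for Defa2, Defa21 and Defa30 and, as genes of the same organ outside the family, for Fabp2 and Lyz1, all from RefSeq on GRCm38.p6 in the direction of transcription. Capitals mark TATAAA, the TATA box core.
Defa2, chr8:21378397-21378516, plus strand: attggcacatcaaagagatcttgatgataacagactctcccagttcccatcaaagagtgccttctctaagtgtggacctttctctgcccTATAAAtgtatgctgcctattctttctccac
Defa21, chr8:21025425-21025544, plus strand: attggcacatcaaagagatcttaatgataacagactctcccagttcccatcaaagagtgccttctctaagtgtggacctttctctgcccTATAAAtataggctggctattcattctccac
Defa30, chr8:21134530-21134649, plus strand: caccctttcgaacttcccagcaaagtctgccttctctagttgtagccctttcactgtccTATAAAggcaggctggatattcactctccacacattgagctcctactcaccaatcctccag
Fabp2, chr3:122894952-122895071, plus strand: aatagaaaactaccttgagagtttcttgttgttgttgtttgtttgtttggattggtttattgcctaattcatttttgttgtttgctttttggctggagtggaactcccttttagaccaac
Lyz1, chr10:117292869-117292988, minus strand: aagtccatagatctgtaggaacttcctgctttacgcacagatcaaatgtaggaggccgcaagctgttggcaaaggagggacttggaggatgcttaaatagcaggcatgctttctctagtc
RefSeq promoters matched 9 of the 13 genes, with 10 windows of 300 bases. TATAAA was found in 5 of the 10, searched on both strands, and these were the 5 matched defensins. Over all 32851 RefSeq promoters of that length 13.6% held it. The 5 defensin windows repeat each other, so they are not separate observations to set against that share. The motif begins 31 bases before the start site in Defa2 and Defa21 and 61 bases before it in Defa30. Such a match is a description of the sequence, and nothing in these data measures binding there.

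Fabp2, Lyz1 and Apoa1 fell as well and share no sequence family with the defensins. Fabp2, the fatty acid binding protein of enterocytes (chr3:122895072-122899506), was 3.33, 1.65, 2.80 and 2.36 FPKM in LPS and 0, 0.149, 0 and 0 FPKM in LPS+XJDHT (log2 difference -1.75 ± 0.15, adjusted p = 0.00026), from 742 and 11 fragments. Lyz1, the lysozyme of Paneth cells (chr10:117287797-117292868), was 4.46, 2.74, 3.22 and 3.43 FPKM in LPS, 0.322, 0.395, 0.712 and 0.224 FPKM in LPS+XJDHT and 1.55, 0.875, 0.499 and 1.07 FPKM in Control (log2 difference -1.66 ± 0.18, adjusted p = 0.0017). The LPS+XJDHT values of Lyz1 thus reach down below the Control values, whereas the LPS values lie above both groups. Apoa1, the main protein of high-density lipoprotein, made in intestine and liver (chr9:46228580-46230466), was 2.38, 1.01, 1.28 and 1.56 FPKM in LPS and 0, 0.241, 0 and 0.0497 FPKM in LPS+XJDHT, with all Control libraries at 0 (log2 difference -1.23 ± 0.16, adjusted p = 0.0056). Its call is the least firm of the 13: it was lost with a pseudocount of 0.1 and in a fit of the 8 libraries alone.

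The other markers of Paneth and goblet cells that are listed were mostly lower in LPS+XJDHT, and those of the enterocyte were mixed. Of 44 Paneth cell markers 19 were listed in both file sets, and a listing takes a group mean of about 0.5 FPKM, which favours genes that are high in 1 group. In 18 of the 19 each LPS+XJDHT library lay below each LPS library, and 16 of the 19 were at 0 in all Control libraries. Over all genes tested 0.86% lay below in this way, a share that leaves out genes under the limit for testing. Of the 10 that could be tested 9 fell and the tenth was Reg3b, described below. Of these 10, however, 8 reached the limit for testing through the LPS libraries alone and 8 are the defensin copies, so both counts describe the listed genes and are no support for a pattern over Paneth markers. The summed expression of the 19 was 29.8 to 40.6 FPKM in LPS, 2.64 to 3.88 FPKM in LPS+XJDHT and 0.499 to 1.58 FPKM in Control. With 1 member kept per gene family the sums were 12.4 to 16.1, 1.72 to 2.44 and 0.499 to 1.55 FPKM in the same order. The defensin kept was Defa24, which had the lowest p of them. Reg3b stood for the Reg3 genes, although Reg3a overlapped between the groups. Both kept members were lower in LPS+XJDHT and were chosen with these data known, so this sum is no separate support. In bulk tissue fewer cells of a type and less RNA per cell cannot be told apart. Whether this RNA came from cells of the heart at all was not tested.

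Several of these markers were too scarce for the test. Itln1, an intelectin of Paneth and goblet cells, was 0.826, 0.903, 0.928 and 0.662 FPKM in LPS and 0, 0.0919, 0 and 0 FPKM in LPS+XJDHT. Ang4, an antibacterial ribonuclease, was 0.561, 0.588, 0.492 and 0.362 FPKM in LPS against 0.0765, 0.203, 0 and 0 FPKM. Zg16 and Tff3, secreted by goblet cells, had LPS values of 0.870 to 1.72 and 0.301 to 0.978 FPKM, while all 4 LPS+XJDHT libraries list them at 0. Against this, Reg3a, a lectin of the same antibacterial family as Reg3b, overlapped between the groups at 0.423 to 0.916 FPKM in LPS and 0.238 to 1.44 FPKM in LPS+XJDHT, and it was the 1 Paneth marker of 19 that did so.

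Of 11 enterocyte markers listed, 8 were tested, and the 2 that fell were Fabp2 and Apoa1. Vil1, which bundles actin in the brush border, and Krt20, a keratin of the villus, lay under the limit at 0.397 to 0.773 and 0.518 to 0.985 FPKM in LPS, against 0.0329 to 0.176 and 0 to 0.103 FPKM in LPS+XJDHT. By contrast 2200002D01Rik was 3.07 to 5.92 FPKM in LPS and 4.24 to 5.72 FPKM in LPS+XJDHT (log2 difference 0.09, 95% interval -0.27 to 0.45). Lgals4, a galectin, was 2.51 to 4.73 and 2.43 to 4.79 FPKM. The enterocyte sum was 20.6 to 25.6 FPKM in LPS, 14.5 to 19.7 FPKM in LPS+XJDHT and 8.72 to 18.2 FPKM in Control. Its LPS and LPS+XJDHT values did not overlap, but it includes Fabp2 and Apoa1. These 2 reached the limit for testing through the LPS libraries alone, so the sum is no support for a pattern over enterocyte markers. None of 12 pancreas and none of 8 lung markers was listed. Listed were 2 of 13 liver, 2 of 11 skeletal muscle, 2 of 8 fat, 1 of 7 kidney and 3 of 8 brain markers, and none of them passed. Ahsg, of the liver list, had the higher mean in LPS+XJDHT. It was 9.74 to 16.3 FPKM in LPS and 14.4 to 29.8 FPKM in LPS+XJDHT, with overlap (log2 difference 0.67, limma unadjusted p = 0.015, adjusted p = 0.97).

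Genes of the male germ line were low in LPS+XJDHT too, and 1 of them passed, or 4 when library LPS 3 was left out. Ldhc, the lactate dehydrogenase of sperm (chr7:46861203-46878142), was 3.20, 2.40, 2.29 and 1.54 FPKM in LPS and 2.22, 2.26, 1.01 and 1.16 FPKM in Control, and it was listed at 0 in the 4 LPS+XJDHT libraries (981, 693 and 0 fragments, log2 difference -1.72 ± 0.19, adjusted p = 0.0017). Unlike the defensins it was thus present without LPS. Prm1, a protamine that packs sperm chromatin, was 1.70, 2.00, 0.330 and 1.87 FPKM in the LPS libraries and 0 in those of LPS+XJDHT, short of the threshold (adjusted p = 0.24). Prm2, its partner, was 1.77, 2.46, 0.166 and 2.63 against 0.0873, 0, 0 and 0 FPKM (adjusted p = 0.39). Tnp1 and Tnp2, the transition proteins that precede protamines, and Crisp2, a sperm protein, were also at 0 in all LPS+XJDHT libraries. In library LPS 3 Tnp1, Tnp2 and Smcp were listed at 0 too. Without that library Prm1, Prm2 and Tnp2 passed beside Ldhc, and Tnp1 as well with the limit set to 3 libraries. Prm1 also passed with a pseudocount of 0.1 and with limma-voom on recovered fragments. Over the 9 testis markers listed of 24, the sum was 6.18 to 19.8 FPKM in LPS, 1.05 to 1.67 FPKM in LPS+XJDHT and 8.0 to 12.6 FPKM in Control. In 4 of the 9 each LPS+XJDHT library lay below each LPS library. Over all genes tested this share was 0.86%, but only 6 of the 9 were tested, so the 2 are not on the same basis. Among the others, Meig1 was 0.985 to 3.01 FPKM in LPS and 0.810 to 1.58 FPKM in LPS+XJDHT. Ybx2 was 0.293 to 1.58 and 0 to 0.690 FPKM in these groups. How RNA of intestinal and testis genes came to be in heart libraries was not tested.

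**Figure D2:**
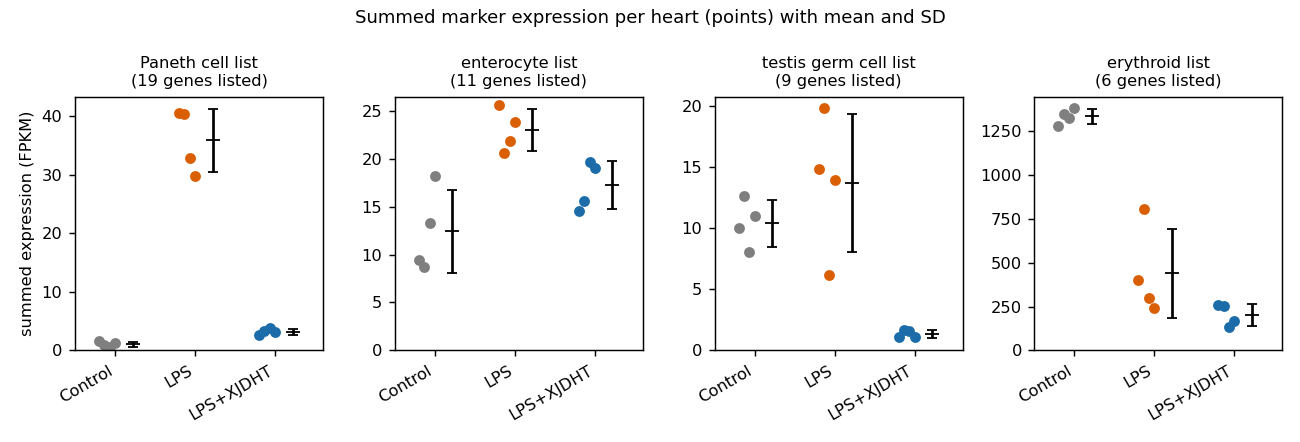
Summed FPKM of 4 marker lists in each heart (points), with the mean and SD of each group (n = 4) as bars beside them. The Paneth sum is high in LPS alone, at 29.8 to 40.6 FPKM, the testis sum is low in LPS+XJDHT alone, at 1.05 to 1.67 FPKM, and the erythroid sum is highest in Control.

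The remaining gene of the 13, Gm38394, was the most abundant, and a gene entry at the same place is listed for the LPS+XJDHT files alone. It is a predicted protein-coding gene on the minus strand (chr1:133619940-133661318) and was 10.1, 10.5, 7.07 and 5.32 FPKM in LPS, 0.844, 1.90, 0.284 and 0.582 FPKM in LPS+XJDHT and 4.58, 5.54, 6.87 and 6.94 FPKM in Control (log2 difference -2.30 ± 0.26, adjusted p = 0.0017). It spans almost the same bases as 2 gene entries that carry the symbol Zc3h11a, a zinc finger protein of mRNA export. The first, ENSMUSG00000102976.6 (chr1:133619862-133661380), is listed in both file sets at 0 to 1.16 FPKM in LPS and 0 to 2.46 FPKM in LPS+XJDHT. The second, ENSMUSG00000116275.1 (chr1:133619871-133661380), with the transcript ENSMUST00000027736, is listed for the LPS+XJDHT files alone, at 75.8, 67.3, 70.2 and 79.1 fragments per M of the library's fragments. Gm38394 took 83.6 ± 25.0 fragments per M in LPS and 9.18 ± 7.16 in LPS+XJDHT (SD, n = 4). Summed over all listed transcripts of Gm38394 and both Zc3h11a entries, the locus had 83.6 ± 6.74 fragments per M in LPS+XJDHT, against 84.7 ± 25.0 in LPS and 64.7 ± 10.8 in Control. The total of the locus thus differed between LPS and LPS+XJDHT by less than the SD of either group, while its division between the entries differed.

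**Figure D3:**
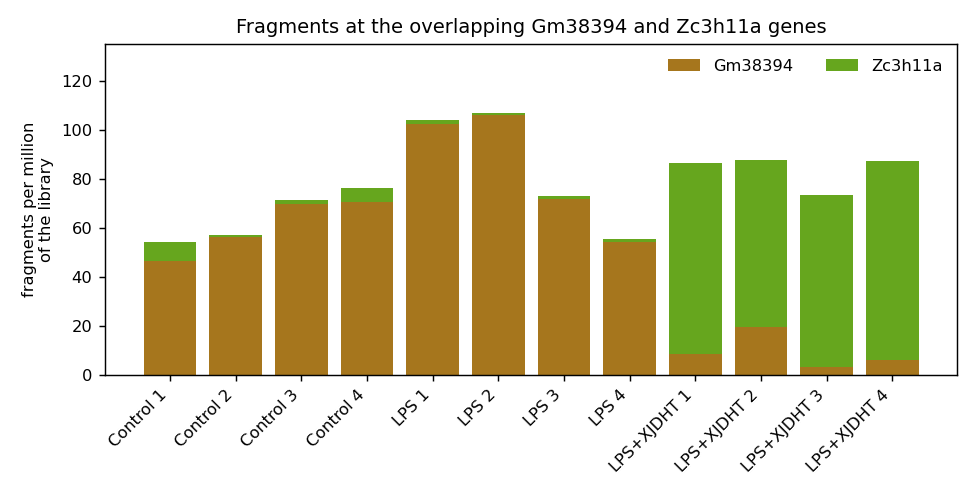
Fragments per M of the library given to Gm38394 and to both Zc3h11a entries in each of the 12 hearts, stacked, with transcripts not listed for a file set counted as 0. The bars are almost wholly Gm38394 in Control and LPS and almost wholly Zc3h11a in LPS+XJDHT, and their heights overlap between LPS and LPS+XJDHT.

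Single transcripts were compared for the same reason. Of 18644 transcripts tested, 16 were lower (0.0858%) and 2 higher (0.0107%) in LPS+XJDHT, and 13 of the 18 were those of the 13 genes above. The other 5 belong to genes whose sum did not pass. Galt, an enzyme of galactose use, had a non-coding transcript (ENSMUST00000130698) at 2.19, 2.67, 1.88 and 2.14 FPKM in LPS and at most 0.0131 FPKM in LPS+XJDHT (adjusted p = 0.00037). The protein-coding Galt transcript ENSMUST00000084695 was 1.31 ± 0.25 FPKM in LPS and 3.14 ± 0.537 in LPS+XJDHT, without passing. For Ano6, a lipid scramblase, transcript ENSMUST00000227791 went from 4.19 ± 1.14 to 0.0133 ± 0.0265 FPKM (adjusted p = 0.00055), while ENSMUST00000071874 was 6.52 ± 2.01 and 13.7 ± 1.03 FPKM. In Hdhd2, a hydrolase-like gene, the shorter ENSMUST00000026485 was listed at 0 in the 4 LPS libraries and was 1.70, 1.72, 3.35 and 5.02 FPKM in LPS+XJDHT (adjusted p = 0.0069). The longer ENSMUST00000097522 was 6.40 ± 1.70 and 4.86 ± 2.64 FPKM. In Galt, Ano6 and Hdhd2 a transcript that passed was therefore accompanied by another of the same gene with a mean on the opposite side. Cd63-ps, a pseudogene, and Supt20, described below, gave the other 2. In Cd63-ps the transcript that passed, ENSMUST00000145417, was 6.45 ± 0.695 FPKM in LPS and 0.116 ± 0.232 in LPS+XJDHT (limma adjusted p = 0.0094). ENSMUST00000154992 of Cd63-ps had means of 9.76 and 15.3 FPKM, also on the opposite side, although LPS+XJDHT 1 was 0.775 FPKM.

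Some gene sums split within a group rather than between groups. Sod2, the superoxide dismutase of mitochondria, was 8.40, 8.82, 54.6 and 54.3 FPKM in LPS+XJDHT libraries 1 to 4 and 65.9, 56.6, 63.8 and 67.7 FPKM in LPS (unadjusted p = 0.017, adjusted p = 0.98). The first 2 LPS+XJDHT libraries were low and the other 2 were near LPS. Cpt1a, which carries fatty acids into mitochondria, was 20.2, 4.12, 22 and 0.600 FPKM in LPS and 23.5, 21, 24.8 and 23.6 FPKM in LPS+XJDHT, so that LPS libraries 2 and 4 were the low ones. The mitochondrial mt-Atp6 was 3103, 21197, 3622 and 21246 FPKM in LPS and 15519 to 19877 FPKM in LPS+XJDHT, with LPS 1 and 3 low. Tlr4 had 8.91, 2.18, 7.85 and 2.28 FPKM in LPS and 3.27, 6.76, 2.40 and 5.55 FPKM in LPS+XJDHT. None of these 4 genes passed the threshold.

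The genes nearest the threshold on the lower side were Reg3b, Zfp408, Tmem176b and Limd2. Reg3b, an antibacterial lectin of the gut that is also made in stressed heart, was 4.10, 7.99, 3.99 and 5.40 FPKM in LPS and 1.80, 0.653, 1.72 and 2.02 FPKM in LPS+XJDHT (log2 difference -1.32 ± 0.22, adjusted p = 0.059). It was at 0 in Control and, unlike the defensins, kept over 0.6 FPKM in every LPS+XJDHT library. Tmem176b, a membrane protein of dendritic cells and macrophages, was the most abundant of the 4, at 49.8, 57.4, 68.9 and 40.5 FPKM in LPS, 25.4, 26.2, 26.5 and 20.2 FPKM in LPS+XJDHT and 16.4 to 26.7 FPKM in Control (log2 difference -1.09 ± 0.19, adjusted p = 0.075). The LPS+XJDHT values of Tmem176b lie within or close to the Control range. Zfp408, a zinc finger gene, was 0.986 to 2.26 FPKM in LPS and at most 0.0515 FPKM in LPS+XJDHT (adjusted p = 0.059), and Limd2, a LIM domain gene, was 1.35 to 2.41 and 0.375 to 0.634 FPKM (adjusted p = 0.079).

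On the higher side the lowest p was that of Supt20, a subunit of the SAGA co-activator. It was 1.30, 0.587, 1.82 and 1.44 FPKM in LPS, 3.51, 4.51, 3.03 and 3.16 FPKM in LPS+XJDHT and 2.78 to 3.33 FPKM in Control (log2 difference 1.01 ± 0.17, adjusted p = 0.064). Dus3l, a dihydrouridine synthase of tRNA, was 0.732 to 1.09, 2.18 to 4.90 and 3.05 to 4.16 FPKM in the same 3 groups (log2 difference 1.05, adjusted p = 0.074). In both genes the LPS+XJDHT values overlapped with Control and the LPS values lay below. Mcf2l, an exchange factor for small GTPases, was 0.0653, 1.54, 0.137 and 0.475 FPKM in LPS and 3.44, 1.47, 3.94 and 3.67 FPKM in LPS+XJDHT, where LPS 2 overlaps with LPS+XJDHT 2 (adjusted p = 0.15). Mcf2l passed without LPS 2 or without LPS+XJDHT 2, with an adjusted p down to 0.013. Itga8, an integrin subunit of fibroblasts and smooth muscle, was 0.530 to 1.28 and 1.47 to 2.11 FPKM, and Gm9821 was 0.627 to 1.37 and 1.97 to 2.75 FPKM (adjusted p = 0.39 and 0.40).

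The gene lists for the pathways LPS acts on, and for the cells of the heart, held 0 genes past the threshold: this was so for each of the 21 pathway and 10 heart cell type lists, beside 0.113% of all genes. Values at an unadjusted p under 0.05 are named below as such, beside 4.79% of all genes. Counts of negative and positive differences stand beside 4911 negative and 6598 positive over all 11509 genes. The median also varied with abundance, at -0.02 for genes with a mean of 50 FPKM or more and 0.05 for those under 5 FPKM. The part of abundance in the signs of a list was not tested. A panel of 28 genes from these pathways gave 27 tested genes, none of which passed, and for 22 the 95% interval lay within 1 log2 unit of 0.

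**Figure D4:**
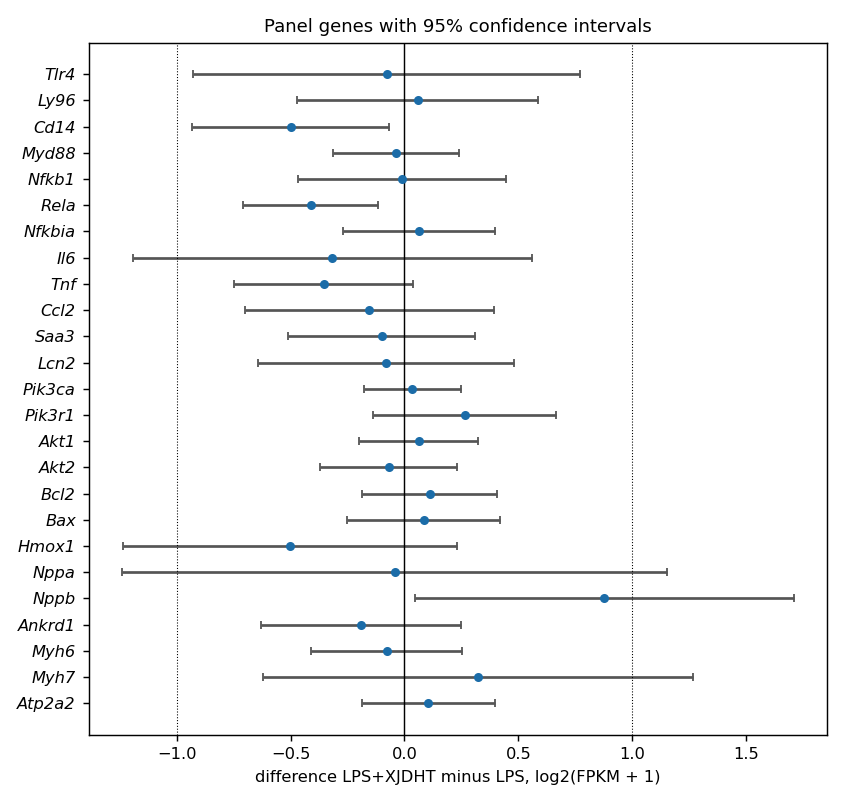
Log2 differences between LPS+XJDHT and LPS for 25 of the tested panel genes, as points, with 95% confidence intervals as bars. The dotted lines mark 1 log2 unit, and the intervals of 20 genes stay between them, while those of Il6, Hmox1, Nppa, Nppb and Myh7 cross them.

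Among the genes that sense LPS, Cd14 and Rela had the lowest differences of the panel members of that pathway. Cd14, the co-receptor of LPS, was 12.7, 13.2, 9.26 and 7.28 FPKM in LPS, 7.34, 6.48, 6.52 and 7.84 FPKM in LPS+XJDHT and 4.12 to 7.76 FPKM in Control (log2 difference -0.50, 95% interval -0.93 to -0.07, unadjusted p = 0.027, adjusted p = 0.99). LPS 4 lay within the LPS+XJDHT range. Rela, the NF-kB subunit p65, was 17.1, 13.9, 14.1 and 15.8 FPKM in LPS and 13, 11.0, 12.8 and 8.39 FPKM in LPS+XJDHT (log2 difference -0.41, 95% interval -0.71 to -0.12, unadjusted p = 0.010, adjusted p = 0.96). Its groups did not overlap, and Control was 9.32 to 11.6 FPKM. The adaptor Myd88, the subunit Nfkb1 and the inhibitor Nfkbia differed by -0.04, -0.01 and 0.06 on the log2 scale. Tab2, a scaffold of the kinase TAK1, was 0.687, 7.35, 5.64 and 12.9 FPKM in LPS and 14.6, 12.4, 14.3 and 10.5 FPKM in LPS+XJDHT (unadjusted p = 0.042), where LPS 1 alone was under 1 FPKM. Over the 29 genes of the list the median was 0.02, against 0.03 for all genes.

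PI3K and AKT signalling, which opposes cell death downstream of growth factors, was measured tightly. All 23 tested genes had a 95% interval within 1 log2 unit of 0, and the list's median was 0.03. Pik3r2, a regulatory subunit of PI3K, had the largest difference, at 4.79, 3.67, 4.85 and 5.36 FPKM in LPS and 5.71, 6.30, 6.29 and 5.98 FPKM in LPS+XJDHT (log2 difference 0.33, 95% interval 0.05 to 0.60, unadjusted p = 0.025). Its groups did not overlap. The kinase Akt1 was 63.4 ± 10.2 FPKM in LPS+XJDHT and 60.3 ± 6.00 FPKM in LPS (interval -0.20 to 0.32), and the catalytic subunit Pik3ca had an interval of -0.18 to 0.25.

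Genes of apoptosis had a median of 0.07 over 29 tested. The pair Bax and Bcl2, which promote and oppose the release of cytochrome c, had intervals of -0.25 to 0.42 and -0.19 to 0.41. Bcl2a1d, a survival gene of myeloid cells, was 2.80, 2.75, 1.69 and 2.25 FPKM in LPS and 0.958, 1.5, 1.20 and 0.819 FPKM in LPS+XJDHT (log2 difference -0.67, unadjusted p = 0.0015, adjusted p = 0.52), without overlap. It has near-identical copies, which makes its own value uncertain. Birc3, an inhibitor of apoptosis that NF-kB induces, was 2.03, 1.22, 1.10 and 3.09 FPKM in LPS and 3.12, 4.27, 3.82 and 12.4 FPKM in LPS+XJDHT (unadjusted p = 0.0090, adjusted p = 0.96), and LPS+XJDHT 4 held the highest value.

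Of 24 cytokine and chemokine genes, 19 had a negative difference and 5 a positive one, with a median of -0.16. Ccl5, which attracts T cells and monocytes, had the lowest p of them. It was 14.2, 20.8, 10.3 and 10.9 FPKM in LPS, 6.75, 5.35, 6.17 and 6.48 FPKM in LPS+XJDHT and 0 to 1.03 FPKM in Control (log2 difference -1.02 ± 0.25, unadjusted p = 0.0018, adjusted p = 0.56). The groups did not overlap, and the LPS+XJDHT libraries remained above Control. Ccl11, which attracts eosinophils, was 2.54 to 8.43 and 1.16 to 4.56 FPKM. Il6, a fever-inducing cytokine, was 10.4, 11.1, 2.86 and 2.44 FPKM in LPS and 6.83, 4.47, 2.55 and 4.00 FPKM in LPS+XJDHT (interval -1.19 to 0.56), with overlap. Tnf, the early cytokine of endotoxin shock, was 1.13, 0.596, 1.39 and 1.05 and 0.331, 1.20, 0.363 and 0.557 FPKM, also with overlap (interval -0.75 to 0.04). Ccl2 differed by -0.15 (interval -0.70 to 0.39), and Il1b, under the limit for testing, was 0.365 to 1.23 and 0.502 to 1.41 FPKM.

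The 2 most abundant acute-phase genes of the panel overlapped between the groups. Saa3, a serum amyloid A made in the tissue, was 2298, 2206, 2902 and 3317 FPKM in LPS and 2823, 1668, 2858 and 2753 FPKM in LPS+XJDHT (interval -0.51 to 0.31), and Lcn2, which withholds iron from bacteria, had an interval of -0.64 to 0.48. The median of the 21 tested was 0.03. Saa1, the circulating form, was 9.48, 0.706, 1.67 and 1.31 FPKM in LPS and 0, 0, 1.41 and 0 FPKM in LPS+XJDHT (log2 difference -1.38, unadjusted p = 0.015), and its highest value came from LPS 1. Interferon-stimulated genes had a median of -0.11 over 34, with 0 under an unadjusted p of 0.05. The complement and antigen presentation lists, of 18 and 17 tested genes, also had 0 such genes and medians of -0.01 and -0.05.

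Endothelial activation and coagulation genes had a median of 0.00. Vcam1, the adhesion molecule that binds leukocytes, was 20.3, 32.2, 32.0 and 33.1 FPKM in LPS and 40.1, 27.0, 50.0 and 44.3 FPKM in LPS+XJDHT (log2 difference 0.43, unadjusted p = 0.042), and Selp, P-selectin, was 13.9 to 36.4 and 28.8 to 41.6 FPKM. In both the groups overlapped and LPS+XJDHT had the higher mean. Markers of macrophages had a median of -0.19, with 9 of 10 negative, 0 under an unadjusted p of 0.05 and all 10 intervals within 1 log2 unit of 0. Cd68, of their lysosomes, was 12.6 to 20.1 and 10.2 to 13.5 FPKM. Neutrophil markers had a median of 0.11 over 6 tested, with Mmp8, their collagenase, at 1.67 to 3.09 and 2.48 to 3.41 FPKM, so their level overlapped between the groups. Monocyte, fibroblast and endothelial marker lists had medians of 0.06, 0.07 and 0.08. Of 13 lymphocyte markers 2 were listed.

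Among antioxidant genes 22 of 29 had a negative difference, with a median of -0.08. Ftl1, the light chain of the iron store ferritin, was 375, 280.1, 281 and 266 FPKM in LPS and 249, 227, 220.2 and 247 FPKM in LPS+XJDHT without overlap (log2 difference -0.34, 95% interval -0.62 to -0.05, unadjusted p = 0.024, adjusted p = 0.99). Hmox1, which breaks down haem, was 145, 84.6, 47.3 and 81.2 against 82.9, 37.8, 44.5 and 82.3 FPKM (interval -1.23 to 0.23), and the groups overlapped.

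The erythroid list, for red cells in the tissue, had the lowest median of the 10 heart cell type lists, -0.80. Of its 6 tested genes 5 were lower at an unadjusted p under 0.05, beside 1.74% of all genes, and 0 passed the adjusted threshold. The members all stand for the same red cells, so the 5 are not 5 separate observations. Hba-a1, an alpha-globin, was 86.2, 171, 71.2 and 54.0 FPKM in LPS, 48.8, 59.6, 26.5 and 29.7 FPKM in LPS+XJDHT and 217 to 267 FPKM in Control (log2 difference -1.14 ± 0.33, unadjusted p = 0.0049, adjusted p = 0.86). Hbb-bs, a beta-globin, was 99.8 to 316, 61.2 to 103 and 537 to 668 FPKM in those groups. The sum of the list was 244 to 808 FPKM in LPS, 131 to 259 FPKM in LPS+XJDHT and 1283 to 1386 FPKM in Control. The highest LPS value came from LPS 2, the groups overlapped, and the part of red cells left in the tissue in the other differences was not tested.

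**Figure D5:**
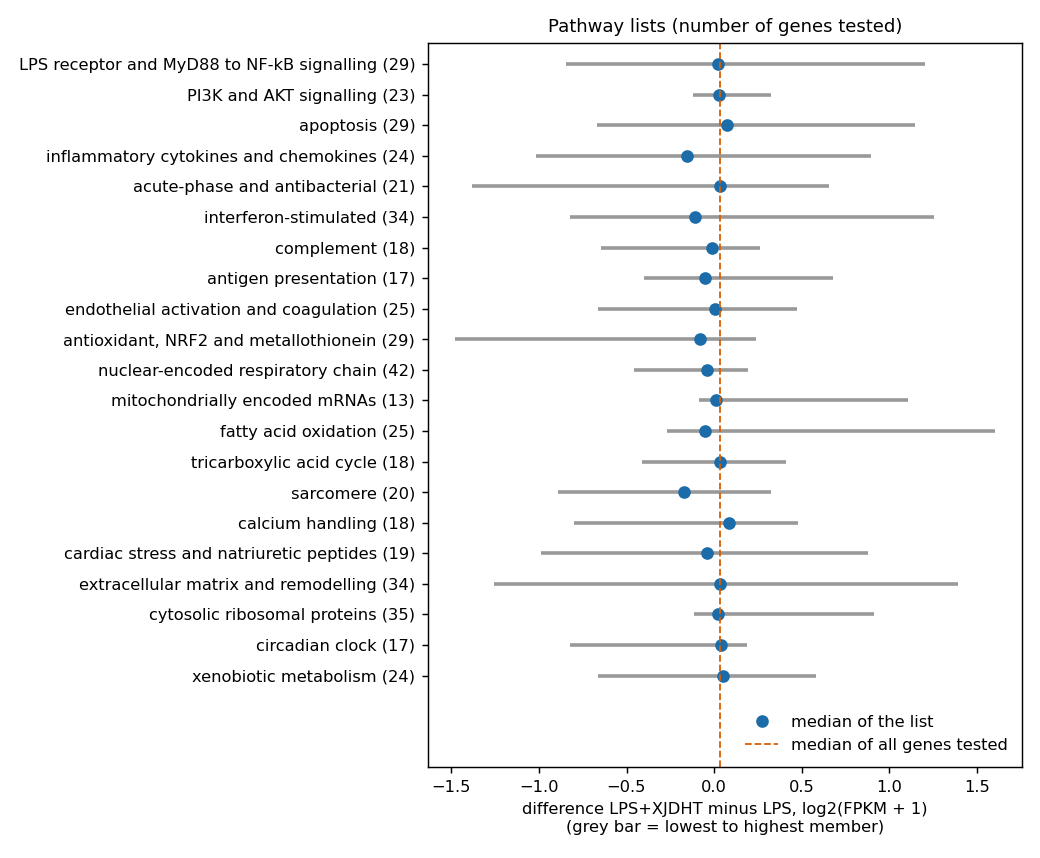
Log2 differences between LPS+XJDHT and LPS for the 21 pathway lists, with the median of each list as a point and the range of its members as a bar. The list medians run from -0.17 (sarcomere) to 0.08 (calcium handling), beside the dashed line at the median of all 11509 genes, while single members reach from -1.48 (Sod2) to 1.60 (Cpt1a).

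In the cardiac muscle, whose function the study is about, no gene of contraction or calcium handling passed. The 20 sarcomere genes had a median of -0.17, with 17 negative and 3 positive. Tnni3, the inhibitory subunit of cardiac troponin, was 365, 179, 388 and 185 FPKM in LPS, 80.3, 177, 155 and 176 FPKM in LPS+XJDHT and 491 to 876 FPKM in Control (log2 difference -0.89, unadjusted p = 0.019, adjusted p = 0.99). LPS 2 and 4 were close to the LPS+XJDHT libraries and LPS 1 and 3 were high. Mb, the oxygen store myoglobin, was 2694 to 4389 and 2306 to 2868 FPKM (log2 difference -0.41, unadjusted p = 0.040). Myh6 had an interval of -0.41 to 0.25 and Atp2a2, the calcium pump of the sarcoplasmic reticulum, one of -0.19 to 0.40. Hrc, a calcium-binding protein of that store, was 95.3, 115, 113 and 113 FPKM in LPS and 95, 100.4, 93.0 and 82.6 FPKM in LPS+XJDHT (log2 difference -0.23, interval -0.41 to -0.05), against 295 to 329 FPKM in Control, so both groups were far below Control.

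Stress genes of the heart gave differences in both directions. Nppb, brain natriuretic peptide, was 28.9, 44.6, 11.7 and 17.4 FPKM in LPS, 48.4, 56.4, 33.3 and 36.3 FPKM in LPS+XJDHT and 66.4 to 167 FPKM in Control (log2 difference 0.88, 95% interval 0.05 to 1.71, unadjusted p = 0.040, adjusted p = 0.99). Its mean with XJDHT lay between those of the other groups, and LPS 2 overlapped with LPS+XJDHT. Ankrd2 and Atf3, a stretch-responsive gene and a stress transcription factor, had differences of -0.85 and -0.90 (unadjusted p = 0.049 and 0.049). Ankrd1, the most abundant stress gene after LPS, was 3435 ± 619.7 against 3984 ± 1083 FPKM (interval -0.63 to 0.25). In the matrix list, with a median of 0.03 over 34, Spp1, osteopontin, was 4.83, 5.48, 2.6 and 3.4 FPKM in LPS and 9.51, 5.99, 27.0 and 12.8 FPKM in LPS+XJDHT (log2 difference 1.39, unadjusted p = 0.011, adjusted p = 0.96). The groups did not overlap, and LPS+XJDHT 3 was the highest. Myh11, the smooth muscle myosin, was 1.25 to 2.93 and 2.6 to 10.9 FPKM (log2 difference 0.93, unadjusted p = 0.027), also with its highest value in LPS+XJDHT 3.

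No gene of energy supply passed either. The 42 nuclear-encoded genes of the respiratory chain had a median of -0.04, with 33 negative and 41 intervals within 1 log2 unit of 0. Cox7b, a subunit of cytochrome oxidase, was 419, 467, 453 and 455 FPKM in LPS and 431, 405, 365 and 346 FPKM in LPS+XJDHT (log2 difference -0.22, unadjusted p = 0.046). Dlst, of the tricarboxylic acid cycle, was 55.7 to 73.0 and 67.1 to 115 FPKM (log2 difference 0.41, unadjusted p = 0.018). Fatty acid oxidation and cytosolic ribosomal protein genes had medians of -0.05 and 0.02. In the clock list, where 0 of 17 genes were under an unadjusted p of 0.05, Nr1d1 was 8.44, 11.9, 4.95 and 8.99 FPKM in LPS and 11.7, 6.22, 1.85 and 1.82 FPKM in LPS+XJDHT. Among 24 genes of xenobiotic metabolism, the enzymes that handle plant compounds and drugs, Aldh3a1 had the lowest p, at 4.94, 9.20, 7.36 and 8.71 against 1.96, 4.07, 5.93 and 6.48 FPKM (log2 difference -0.66, unadjusted p = 0.033), and the median was 0.05.

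A further 317 genes are listed for the LPS+XJDHT files alone and 583 for the Control and LPS files alone. A gene enters a file set when a group mean of a transcript is about 0.5 FPKM or more, so the 317 genes, which have no LPS value, can hold increases in LPS+XJDHT but hardly decreases. The 583 have no LPS+XJDHT value, and no test was made of either set. Beside Zc3h11a, at 15.3 to 18.0 FPKM, the highest means listed for LPS+XJDHT alone were those of Tle3, a transcriptional co-repressor, at 2.20, 1.5, 3.23 and 2.53 FPKM, Pagr1a, Ppan and Acsm5. For Pagr1a the highest value was that of LPS+XJDHT 3, at 7.08 FPKM against 0.0759, 0.119 and 0.890 in the others. Of the 317 genes 27 had a mean of 1 FPKM or more, and 3 reached 1 FPKM in every LPS+XJDHT library. The list members among them were Ccl3, a chemokine of macrophages, at 0.850, 0.856, 0.328 and 0.420 FPKM, Abcb1a, Bmp10, Tnnt3 and Ucp1. Among the 583 the highest LPS mean was that of Rbms2, an RNA-binding protein, at 0.753, 0.943, 0.610 and 1.39 FPKM.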

How the data were processed

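The series holds 12 heart libraries of 3 groups of 4. The deposited files give 1 value per transcript, which is FPKM as made by the authors; the unit was read from the values, since the value times the annotated length, divided by the worth of 1 fragment in that library, was whole within 0.1 for 98.5% to 98.8% of those examined. The submitters' processing notes name mm10 and limma without a role; the sources used here name no aligner or quantifier, which are therefore not given. The 24723 GENCODE M21 transcripts in both file sets were summed to 12866 genes (37 Ensembl transcripts without an annotation entry were left out). The 11509 genes that reached 1 FPKM in 4 or more libraries were tested on log2(FPKM + 1) with limma 3.58.1 in R 4.3.3, using empirical Bayes with an intensity trend, all 12 libraries in 1 fit and no covariate. The contrast LPS+XJDHT minus LPS was two-sided with Benjamini-Hochberg adjusted p under 0.05. Since low genes vary less on this scale, a gene near 0 in a group can pass with few fragments.

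The members and the 43 gene lists were chosen with earlier results of these data known, so lists carry counts and medians and no test. Named genes are all that passed, the 5 with the lowest p each way that did not, a panel of 28, up to 2 further members of each list, members of the intestine and testis lists at 0.5 FPKM or more in a group, and the 5 most abundant genes listed in 1 file set. Transcripts, promoters and identities were handled with Python 3.11.15, pandas 2.3.3, NumPy 2.4.6, Biopython 1.88 and matplotlib 3.10.9. On simulated data for 11509 genes, 81 of 100 genes changed by 1 log2 unit and 91 of 100 changed by 2 were recovered, with 6 false calls. Only genes whose LPS level reached 2 after the log transformation were given a change. Most of the genes that fell were scarcer than that, so these rates do not give the power for them. Whether the rates hold for genes that split within a group was not tested. Fragment intervals and limits cover counting error only. Alternatives changed the pseudocount, the limit on low values, the libraries fitted, the scaling, the weights and the genes, and used limma-voom on recovered fragments. A few panel genes are counted but not reported here by name.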

Additional observations from a re-analysis of the deposited data

Results flagged for a closer look

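Of 274 groups of 4 libraries examined, 19 held a library far from the other 3. In 8 of the 19 the other 3 libraries were at 0, where any value above 0 stands out whatever its size, and these 8 say nothing about an unusual library. Among the other groups 11 stood out, and about 1 in 20 groups does so by chance.

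In LPS+XJDHT 2, Defa2 was 0.246, Defa20 0.339, Defa32 0.216 and Fabp2 0.149 FPKM, where the other 3 LPS+XJDHT libraries were at 0. In LPS+XJDHT 4, Gm7849 was 0.0527 and Gm7861 0.0508 FPKM, from 2 fragments each, which is within the 3 fragments that a count of 0 allows. Prm2 was 0.0873 FPKM in LPS+XJDHT 1 and Saa1, an acute-phase protein, 1.41 FPKM in LPS+XJDHT 3, again with the others at 0.

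Among LPS+XJDHT libraries with values above 0, Saa3 was 1668 FPKM in library 2 and 2753 to 2858 FPKM in the others. Birc3 was 12.4 FPKM in library 4 against 3.12 to 4.27 FPKM, and Selp, an adhesion receptor of activated endothelium, was 41.6 FPKM in library 1 against 28.8 to 30.7 FPKM.

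Among LPS libraries, Saa1 was 9.48 FPKM in library 1 against 0.706 to 1.67 FPKM. In the same library Ftl1, the ferritin light chain, was 375 against 266 to 281 FPKM, Hrc, a calcium-binding protein of the sarcoplasmic reticulum, 95.3 against 113 to 115 FPKM, and Vcam1, an endothelial adhesion molecule, 20.3 against 32.0 to 33.1 FPKM. In LPS 2, Col1a1, a collagen chain, was 24.8 against 38.3 to 38.7 FPKM and Gm9821 was 0.627 against 1.30 to 1.37 FPKM. Myh7, the beta-myosin heavy chain, was 124 FPKM in LPS 3 against 42.1 to 46.9 FPKM. Gzma, a protease of cytotoxic lymphocytes, was 3.04 FPKM in LPS 4 against 1.35 to 1.53 FPKM.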

How the results depend on the processing

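The count of 13 lower genes was 13 or 14 with a pseudocount of 0.1 or 0.5, sample quality weights, limma-voom on recovered fragments (0 higher, 14 lower) or median-ratio scaling, 12 in a fit of the 8 libraries alone and 11 without mitochondrial and haemoglobin genes, where Apoa1 and Gm7861 miss the limit. It was 41 with no filter on low values, 1 (Gm38394) with a limit of 5 FPKM and 1 (Gm38394) without the intestine and testis lists, 2 settings that remove the other 12 genes from the test. Leaving out 1 library gave 3 to 15 lower genes: 14 or 15 without an LPS+XJDHT library, but 4, 3, 7 and 3 without LPS 1, 2, 3 and 4, because genes present in LPS alone then miss the limit of 4 libraries. With the limit set to 3 libraries, an alternative added after seeing the data, these 4 counts were 18, 18, 19 and 18 and held all 13 genes. With all listed transcripts of the genes in both file sets, also added later, 15 genes were lower and 3 higher. A transcript not listed for a file set counted as 0 there, so this setting can itself make differences between the file sets. The count of 0 higher genes (351 at an unadjusted p under 0.05) became 1 with a pseudocount of 0.1, 2 with no filter and 3 with sample quality weights, and ranged from 0 to 2 over left-out libraries, or up to 3 with the limit in 3 libraries. Without LPS 3 the testis genes Prm1, Prm2 and Tnp2 were among the lower genes, with Tnp1 when the limit was in 3 libraries, and Prm1 also with a pseudocount of 0.1 or limma-voom. The cause of these additional calls was not tested. Over 129 named genes and 23 settings, 2785 of 2816 values kept their direction where called and their side of the threshold, 29 became calls, 2 (Apoa1) ceased to be calls, 0 reversed, and 88 values short of the threshold in both settings changed sign. A gene that was not tested in a setting gave no value there and counts as neither kept nor lost. Defa2, for example, had a value in 17 of the 23 settings and Gm7861 in 15. The LPS+XJDHT minus LPS difference in the summed FPKM of the Paneth cell list was -32.7 FPKM, -34.8 to -31.2 over left-out libraries and -12.0 with 1 member per family. The members kept for that last value included Defa24 and Reg3b, chosen with these data known. No paired analysis was possible because the labels give each mouse a number of its own and no number is shared between groups. Depth limits what a listed 0 can show, since it allows up to 3 fragments; the part of depth in the calls was not tested.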
